A study of Mus musculus with 203 samples.

Results

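The BCL2 family sets the threshold at which a cell dies by apoptosis, and 10 of its genes were followed here through IL4 treatment and KDM1A knockdown of mouse macrophages. The genes were chosen by their symbols and are Bcl2, Bcl2l1, Mcl1, Bax, Bak1, Bcl2l11, Bbc3, Pmaip1, Bid and Bmf. All 10 were among the 25094 genes of the RAW cell RNA-seq table, and all 10 passed the filter on low values that left 12905 genes for testing. The table of bone marrow-derived macrophages (BMDMs) lists the 10 genes among its 16478 rows, but it holds only the authors' own comparisons and was not used.

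RAW264.7 (RAW) is a macrophage cell line, labelled as of BALB/c origin. RAW cells carried a lentiviral short hairpin RNA, either against GFP as a control (shGFP) or against KDM1A (shKDM1A), a histone lysine demethylase, and were left without IL4 or given 20 ng/ml of IL4 for 6 h. There were 4 groups of 4 libraries, which are shGFP control, shGFP IL4, shKDM1A control and shKDM1A IL4. The study used 1 hairpin for KDM1A, so effects of the knockdown and of that hairpin cannot be told apart. The study's methods speak of biological replicates in general and the labels do not say how the libraries of a group were separated, so the p-values measure the spread between these libraries, which may be technical.

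Proteins of the family act at the outer membrane of mitochondria. BCL2, BCL-XL (encoded by Bcl2l1) and MCL1 keep cells alive by binding their death-promoting relatives, BAX and BAK (encoded by Bak1) form the pores that release cytochrome c, and the BH3-only proteins BIM (Bcl2l11), PUMA (Bbc3), NOXA (Pmaip1), BID and BMF carry death signals to both. BIM is known as the BH3-only protein through which white blood cells die when their growth factors are withdrawn. MCL1 is known as a survival protein of neutrophils and BCL-XL as one of macrophages. The data are of RNA from whole cultures, in which fewer cells with a transcript and less of it per cell cannot be told apart, and they measure neither protein nor cell death.

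In outline, IL4 raised Bcl2, Bak1 and Bcl2l11 and lowered Pmaip1, Bid and Bbc3 in both shGFP and shKDM1A cells, but both Bbc3 calls and that of Bcl2l11 in shKDM1A cells were lost when some libraries were left out. KDM1A knockdown lowered Bcl2 and Bmf and raised Bcl2l1 and Bak1, both without and with IL4, though for Bcl2l1 without IL4 only just. Of the 10 genes, Bcl2l11 alone passed the test of a difference in IL4 response between the 2 cell lines (Bax also passed it without shKDM1A IL4 libraries 2 and 4), going from a 46.8% increase in shGFP cells to a 6.31% increase in shKDM1A cells. Knockdown itself raised Bcl2l11 by 27.6% without IL4 and lowered it by 7.59% with IL4. The largest change of any of the 10 genes was smaller than 2-fold.

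The upstream sequences of Bcl2, Bak1 and Bcl2l11 are shown because these 3 genes rose with IL4 in both cell lines. Each line gives the 250 bases before the RefSeq start of the gene in the mm9 genome, 5′ to 3′ on the strand of the gene, with CG dinucleotides in capitals and, in Bak1, also the 8 letters of a motif match. The Bcl2 window lies at chr1:108610868-108611117 on the minus strand, the Bak1 window at chr17:27165573-27165822 on the minus strand and the Bcl2l11 window at chr2:127951524-127951773 on the plus strand.
Bcl2: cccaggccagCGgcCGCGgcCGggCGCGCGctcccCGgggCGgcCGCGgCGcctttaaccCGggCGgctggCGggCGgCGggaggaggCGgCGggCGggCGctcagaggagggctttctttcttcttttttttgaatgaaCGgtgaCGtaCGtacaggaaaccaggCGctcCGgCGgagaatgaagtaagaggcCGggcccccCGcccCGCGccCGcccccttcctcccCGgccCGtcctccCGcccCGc
Bak1: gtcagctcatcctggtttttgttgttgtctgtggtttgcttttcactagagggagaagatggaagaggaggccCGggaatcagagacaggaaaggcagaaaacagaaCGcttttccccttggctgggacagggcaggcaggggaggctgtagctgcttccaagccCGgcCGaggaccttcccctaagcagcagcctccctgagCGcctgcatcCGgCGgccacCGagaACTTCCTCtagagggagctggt
Bcl2l11: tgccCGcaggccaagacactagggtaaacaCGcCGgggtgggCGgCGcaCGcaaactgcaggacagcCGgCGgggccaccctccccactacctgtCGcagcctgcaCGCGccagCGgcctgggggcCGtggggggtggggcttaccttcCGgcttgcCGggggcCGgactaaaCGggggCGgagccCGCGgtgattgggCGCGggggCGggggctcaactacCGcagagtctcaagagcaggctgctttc

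These 3 windows differ in base composition. That of Bcl2 holds 36 CG dinucleotides and 74.8% G and C, that of Bcl2l11 holds 24 and 72.0%, and that of Bak1 holds 8 and 58.4%, beside medians of 9 and 54.8% over the windows of 25010 genes. Of the 10 genes, Bak1 has the only match to any of 4 motifs searched on both strands. It is ACTTCCTC from 22 to 15 bases before the start, the reverse complement of GAGGAAGT, a core bound by the macrophage factor PU.1, which 2.32% of all windows hold. None of the 10 windows holds TTC and GAA set 4 bases apart, the form bound by STAT6 (5.55% of all windows), TTC and GAA set 3 bases apart, the general STAT form (6.78%), or the AP-1 form TGANTCA (6.21%). These are descriptions of the letters in the windows and say nothing about binding.

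Library totals ranged from 17554721 to 27782568 tags, and the median standard deviation of a gene within a group lay between 0.037 and 0.048 log2 units, so small differences could pass a test. Kdm1a itself, the target of the hairpin, had log2 values between 11.07 and 11.23 in the 8 shGFP libraries and between 10.23 and 10.36 in the 8 shKDM1A libraries, which put it 45.8% lower without IL4 and 42.0% lower with IL4. These percentages come from the deposited log2 values, and the paper reports a larger decrease by quantitative PCR. Of 8 macrophage markers 7 passed the filter on low values, all but Mertk. The log2 of the summed level of all 8 was weighted towards the marker with the highest mean, 16.87. It ran from 17.18 to 17.21 in shGFP IL4 libraries and from 17.44 to 17.50 in shGFP control. In shKDM1A cells it ran from 17.62 to 17.72 with IL4 and from 17.68 to 17.71 without. None of 16 markers of T cells, B cells, fibroblasts and epithelial cells passed the filter, and the 4 that did of 8 neutrophil and dendritic cell markers stayed at a mean of 4.12 or lower. Principal component 3, which took 5.4% of the variance, set shKDM1A IL4 libraries 1 and 3, at 6.68 and 5.33, apart from libraries 2 and 4, at -1.8 and -1.27, and the shGFP control libraries ran from 0.27 to 5.42 on it. For the 10 genes, calls that changed without either pair of shKDM1A IL4 libraries are given with the gene, with and without them. Calls of single other genes were not followed without these pairs.

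Values are the log2 values that the authors deposited. To set genes side by side, the log2 of the transcript length in kb was taken from each value. In shGFP control cells the pore former Bax then had the highest level of the 10 genes, 12.47 (percentile 98.0 of the genes tested), and was followed by Mcl1 at 11.70, Bak1 at 11.34 and Bid at 10.49. Bcl2l1 at 8.69, Bbc3 at 8.13 and Pmaip1 at 8.05 lay in the middle of the genes tested. Bcl2l11 at 6.66 (percentile 36.3), Bcl2 at 5.76 (percentile 27.2) and Bmf at 4.36 (percentile 18.5) were the lowest. Bbc3 and Pmaip1 were the only neighbours in this order whose 4 libraries overlapped, so their order is not set by these data. On the scale as deposited, without the length, Mcl1 had the highest level, ahead of Bak1 and Bax, and Pmaip1 changed places with Bbc3.

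**Figure D1:**
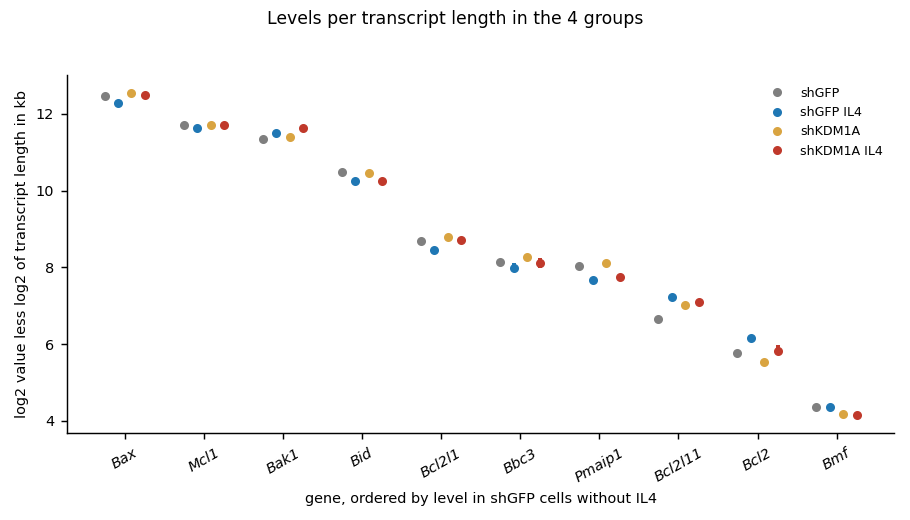
The y axis gives the log2 value less the log2 of the transcript length in kb and the x axis the 10 genes, with a point for the mean and a bar for the range of the 4 libraries of each group. Bax stands highest at 12.47 and Bmf lowest at 4.36 in shGFP control cells, and the ranges of Bbc3 and Pmaip1 overlap there.

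The first question was how IL4 changed the family in control cells. In shGFP cells 9 of the 10 genes changed at an adjusted p under 0.05 (limma, Benjamini-Hochberg adjustment over all genes tested), against 26.9% of all genes tested. A total of 3 rose (13.1% of all genes) and 6 fell (13.7%), and the ranges of treated and untreated libraries did not overlap in 8 of the 10, against 28.3% of all genes. The median change of the 10 genes was -0.11 on the log2 scale and their median absolute change 0.21, beside 0.048 for all genes tested. In shKDM1A cells 6 of the 10 genes changed, against 27.1% of all genes, 3 of them rising (13.6%) and 3 falling (13.5%), and 5 of the 10 had ranges that did not overlap (25.7%).

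Bcl2l11 encodes BIM, the BH3-only protein able to bind every survival protein of the family. It stood at 9.02, 9.01, 8.98 and 8.96 in the shGFP control libraries and at 9.59, 9.55, 9.56 and 9.50 with IL4. In shKDM1A cells it stood at 9.34, 9.31, 9.36 and 9.38 without IL4 and at 9.41, 9.44, 9.43 and 9.46 with it. The 4 groups did not overlap, with shGFP control lowest, both shKDM1A groups in the middle and shGFP IL4 highest. IL4 raised Bcl2l11 by 0.55 log2 units in shGFP cells (standard error, SE, 0.022, adjusted p = 1.4e-11) and by 0.088 in shKDM1A cells (SE 0.022, adjusted p = 0.0072). The second increase, unlike the first, missed the threshold without shKDM1A IL4 libraries 2 and 4, at 0.073 (adjusted p = 0.063). KDM1A knockdown raised Bcl2l11 by 0.35 without IL4 (adjusted p = 2.4e-09) and lowered it by 7.59% with IL4 (log2 fold change -0.11, adjusted p = 0.00068). The responses to IL4 differed by -0.47 between shKDM1A and shGFP cells (95% confidence interval -0.53 to -0.40, adjusted p = 2.8e-07), a test passed by 6.13% of all genes (3.56% with a higher and 2.57% with a lower response) and, among these 10, by Bcl2l11 alone. Leaving out each of the 16 libraries in turn kept this difference between -0.48 and -0.45. The number of all genes passing the test moved with the shKDM1A IL4 libraries. It was 791 of 12905 with all libraries, 348 without libraries 1 and 3 and 2282 without libraries 2 and 4, and Bcl2l11 passed each time.

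Bcl2, the founding survival gene of the family, was higher with IL4 in both cell lines and lower after knockdown in both conditions. Its values were 8.64, 8.68, 8.59 and 8.50 in shGFP control libraries and 9.05, 8.98, 9.04 and 9.00 in shGFP IL4 libraries. In shKDM1A cells they were 8.29, 8.42, 8.35 and 8.42 without IL4 and 8.64, 8.81, 8.58 and 8.65 with it. Treated and untreated libraries of each cell line were fully apart, while shKDM1A cells with IL4 lay at about the level of shGFP cells without it. IL4 raised Bcl2 by 33.1% in shGFP cells (log2 fold change 0.41, SE 0.047, adjusted p = 4.1e-06) and by 23.0% in shKDM1A cells (0.30, adjusted p = 0.00014). Knockdown lowered it by 14.9% without IL4 (log2 fold change -0.23, adjusted p = 0.00085) and by 21.4% with IL4 (-0.35, adjusted p = 1.7e-05). The responses of the 2 cell lines to IL4 differed by -0.11 (95% confidence interval -0.25 to 0.026, adjusted p = 0.32), which did not pass the test.

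The other survival genes, Bcl2l1 and Mcl1, moved the opposite way in shGFP cells. Bcl2l1, which encodes BCL-XL, was at 10.10, 10.08, 10.01 and 10.12 in shGFP control libraries and at 9.85, 9.80, 9.84 and 9.93 with IL4. In shKDM1A cells it was at 10.17, 10.16, 10.13 and 10.26 without IL4 and 10.19, 10.10, 10.04 and 10.08 with it. The shGFP IL4 group stood alone below the other 3. IL4 lowered Bcl2l1 by 14.5% in shGFP cells (log2 fold change -0.23, SE 0.037, adjusted p = 0.00020). In shKDM1A cells the change of -0.078 did not pass (95% confidence interval -0.16 to 0.00039, adjusted p = 0.14), but it did without shKDM1A IL4 library 1 (adjusted p = 0.044). Knockdown raised Bcl2l1 by 18.8% with IL4 (0.25, adjusted p = 4.9e-05). Without IL4 the increase of 0.10 (adjusted p = 0.042) lay near the threshold and was lost when any 1 of 7 libraries was left out (adjusted p up to 0.14), namely shGFP control 1, 2 and 3, shGFP IL4 1 and shKDM1A control 1, 2 and 4. It was also lost without shKDM1A IL4 libraries 2 and 4 together (adjusted p = 0.053), without the filter on low values, and when libraries were centred or quantile normalized. The difference in response, 0.15, did not pass the test (95% confidence interval 0.037 to 0.26, adjusted p = 0.10).

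Mcl1, a survival gene with a short-lived protein, varied least. Its 16 libraries lay between 13.39 and 13.53. The shGFP IL4 libraries, from 13.39 to 13.44, were below all others, the next of which was at 13.48. IL4 lowered Mcl1 by 5.38% in shGFP cells (log2 fold change -0.080, SE 0.017, adjusted p = 0.0023), and with IL4 it was 5.63% higher after knockdown (0.079, adjusted p = 0.0015). This second call was lost under quantile normalization, where it was 0.021 with an adjusted p of 0.41. Neither IL4 in shKDM1A cells (-0.016, 95% confidence interval -0.052 to 0.020) nor knockdown without IL4 (0.015, -0.021 to 0.052) passed the test.

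**Figure D2:**
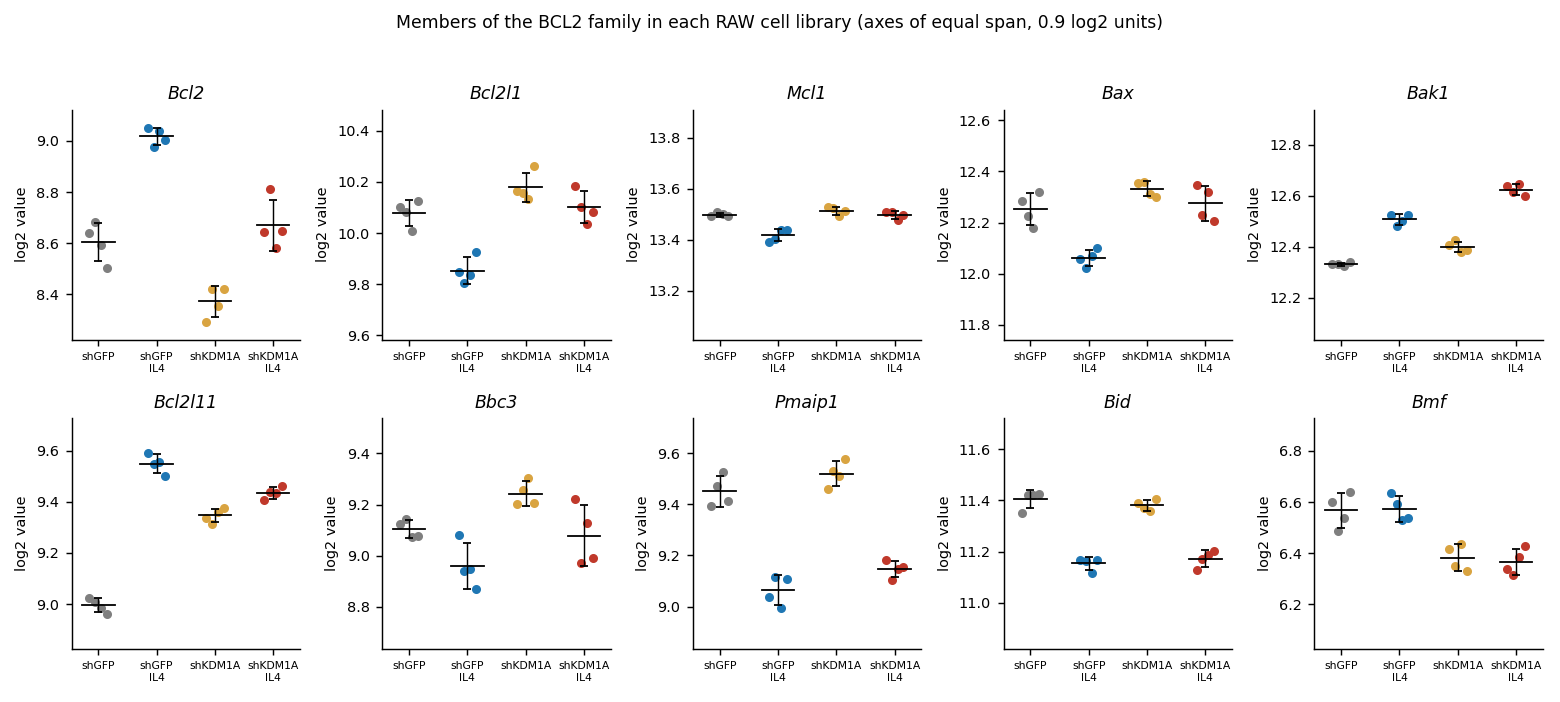
Each panel plots the log2 value of 1 gene in the 16 libraries, 4 for each group, with black lines for the mean and its SD, and every y axis spans 0.9 log2 units. Bcl2l11 climbs from about 9.0 to 9.5 with IL4 in shGFP cells but only from 9.35 to 9.43 in shKDM1A cells, and Pmaip1 and Bid drop with IL4 in both.

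The pore formers parted with IL4. Bak1, which encodes BAK, was at 12.33, 12.33, 12.33 and 12.34 in shGFP control libraries and at 12.52, 12.48, 12.50 and 12.53 with IL4. In shKDM1A cells it was at 12.41, 12.43, 12.38 and 12.39 without IL4 and 12.64, 12.61, 12.65 and 12.60 with it. The 4 groups did not overlap and were ordered as shGFP control, shKDM1A control, shGFP IL4 and shKDM1A IL4. IL4 raised Bak1 by 12.9% in shGFP cells (log2 fold change 0.18, SE 0.018, adjusted p = 1.1e-06) and by 16.8% in shKDM1A cells (0.22, adjusted p = 6.5e-08). Knockdown raised it by 4.78% without IL4 (0.067, adjusted p = 0.0063, lost under quantile normalization at 0.12) and by 8.39% with IL4 (0.12, adjusted p = 6.1e-05, and 0.050 with an adjusted p of 0.045 under quantile normalization). Bak1 overlaps Ggnbp1 on the opposite strand and the authors counted reads of both strands. Ggnbp1 had means between 3.82 and 3.88 in the 4 groups and passed no comparison.

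Bax was at 12.29, 12.22, 12.18 and 12.32 in shGFP control libraries and at 12.06, 12.02, 12.07 and 12.10 with IL4. In shKDM1A cells it was at 12.35, 12.36, 12.31 and 12.30 without IL4 and 12.35, 12.23, 12.32 and 12.21 with it. The shGFP IL4 group lay below every other library, and the shKDM1A IL4 group was spread, with libraries 1 and 3 above libraries 2 and 4. IL4 lowered Bax by 12.3% in shGFP cells (log2 fold change -0.19, SE 0.034, adjusted p = 0.00053), and knockdown raised it by 16.0% with IL4 (0.21, adjusted p = 0.00011). Without IL4 the knockdown gave 0.080 (adjusted p = 0.078), which passed without shGFP control library 4 (adjusted p = 0.033), without shKDM1A IL4 libraries 1 and 3 (0.037), without shKDM1A IL4 libraries 2 and 4 (0.038) and with a trended prior variance (0.044). In shKDM1A cells the IL4 change was -0.056 (adjusted p = 0.26), against -0.11 (adjusted p = 0.033) without libraries 1 and 3 and 0.0016 (adjusted p = 0.98) without libraries 2 and 4. The difference in response, 0.13 (adjusted p = 0.11), passed, of the refits run, only without libraries 2 and 4, at 0.19 (adjusted p = 0.012). Of all genes, 2282 of 12905 passed in that refit, against 791 with no library left out. What set these libraries apart was not tested.

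Among the BH3-only genes, Pmaip1 fell most with IL4. Pmaip1 encodes NOXA, which binds mainly MCL1, and was at 9.39, 9.47, 9.53 and 9.41 in shGFP control libraries and at 9.04, 9.11, 8.99 and 9.11 with IL4. In shKDM1A cells it was at 9.46, 9.53, 9.51 and 9.58 without IL4 and 9.18, 9.10, 9.15 and 9.15 with it. Treated libraries lay below untreated ones in both cell lines. Pmaip1 fell by 23.5% in shGFP cells (log2 fold change -0.39, SE 0.035, adjusted p = 2.6e-07) and by 22.7% in shKDM1A cells (-0.37, adjusted p = 4.7e-07). The responses differed by 0.015, with a 95% confidence interval of -0.088 to 0.12. Knockdown gave 0.068 without IL4 (adjusted p = 0.14) and 0.084 with IL4 (adjusted p = 0.065). The first passed without shGFP control library 3 (adjusted p = 0.046), and the second passed when any of shGFP control 3, shGFP IL4 2, shGFP IL4 4 or shKDM1A IL4 2 was left out (adjusted p from 0.044) and when libraries were centred or quantile normalized.

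Bid, whose protein is cut by the initiator caspase of death receptors and then moves to mitochondria, behaved similarly. It was at 11.35, 11.42, 11.42 and 11.42 in shGFP control libraries and at 11.17, 11.16, 11.12 and 11.17 with IL4. In shKDM1A cells it was at 11.39, 11.37, 11.36 and 11.40 without IL4 and 11.13, 11.17, 11.19 and 11.20 with it. Again no treated library reached an untreated one. Bid fell by 15.9% in shGFP cells (log2 fold change -0.25, SE 0.022, adjusted p = 2.6e-07) and by 13.4% in shKDM1A cells (-0.21, adjusted p = 2.6e-06). Knockdown passed the test in neither condition, with -0.024 without IL4 (95% confidence interval -0.071 to 0.024) and 0.019 with IL4 (-0.029 to 0.066).

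Bbc3 encodes PUMA, a target of p53 that, like BIM, binds every survival protein of the family. Its libraries lay from 9.07 to 9.14 in shGFP control, 8.87 to 9.08 in shGFP IL4, 9.20 to 9.30 in shKDM1A control and 8.97 to 9.22 in shKDM1A IL4, where libraries 1 and 3 (9.22 and 9.13) were again above 2 and 4 (8.97 and 8.99). Treated and untreated ranges overlapped in both cell lines. IL4 lowered Bbc3 by 9.57% in shGFP cells (log2 fold change -0.15, SE 0.051, adjusted p = 0.046) and by 10.7% in shKDM1A cells (-0.16, adjusted p = 0.025), and knockdown without IL4 raised it by 10.1% (0.14, adjusted p = 0.043). All 3 calls depended on the libraries used. The first was lost without any 1 of 10 libraries, adjusted p up to 0.14 (each shGFP control, shGFP IL4 2, 3 and 4, and shKDM1A control 1, 2 and 4), the second without any 1 of 4, up to 0.080 (shKDM1A control 2 and 3 and shKDM1A IL4 2 and 4), and the third without any 1 of 8, up to 0.12 (shGFP control 1, 3 and 4, shGFP IL4 2 and 3, and shKDM1A control 2, 3 and 4). Without shKDM1A IL4 libraries 2 and 4 together the IL4 change in shKDM1A cells was -0.067 (adjusted p = 0.35), and without libraries 1 and 3 it was -0.26 (adjusted p = 0.00091). With IL4, knockdown gave 0.12 (adjusted p = 0.075), which passed without shGFP IL4 1, shKDM1A IL4 2 or shKDM1A IL4 4 (adjusted p from 0.020), and without shKDM1A IL4 libraries 2 and 4 together (0.22, adjusted p = 0.0026).

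Bmf, whose protein is released from the actin cytoskeleton when cells detach, had the lowest level of the 10 genes and responded to the knockdown but not detectably to IL4. Its libraries lay from 6.49 to 6.64 in shGFP control and 6.53 to 6.63 in shGFP IL4, and from 6.33 to 6.44 in shKDM1A control and 6.31 to 6.43 in shKDM1A IL4. All 8 shKDM1A libraries were therefore below all 8 shGFP libraries. Knockdown lowered Bmf by 12.0% without IL4 (log2 fold change -0.18, SE 0.037, adjusted p = 0.00083) and by 13.4% with IL4 (-0.21, adjusted p = 0.00028). The IL4 changes were 0.0058 in shGFP cells (95% confidence interval -0.073 to 0.084) and -0.017 in shKDM1A cells (-0.095 to 0.062).

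The second question was how loss of KDM1A changed the family. Without IL4, 6 of the 10 genes passed, against 38.2% of all genes, with 4 higher (19.7% of all genes) and 2 lower (18.4%). The 6 had ranges that did not overlap, which 37.4% of all genes had. With IL4, 7 passed, against 40.7% of all genes, with 4 higher (20.9%) and 3 lower (19.8%), and the same 7 had ranges that did not overlap (36.4%). By role, with IL4 the survival genes Bcl2l1 and Mcl1 and both pore formers were higher in shKDM1A cells, while Bcl2 and the BH3-only genes Bcl2l11 and Bmf were lower. The median change of the 10 genes was 0.068 without and 0.081 with IL4, beside -0.0027 and -0.0024 for all genes tested. Their median absolute change was 0.090 without IL4, beside 0.062 for all genes tested, and 0.12 with IL4, beside 0.067.

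**Figure D3:**
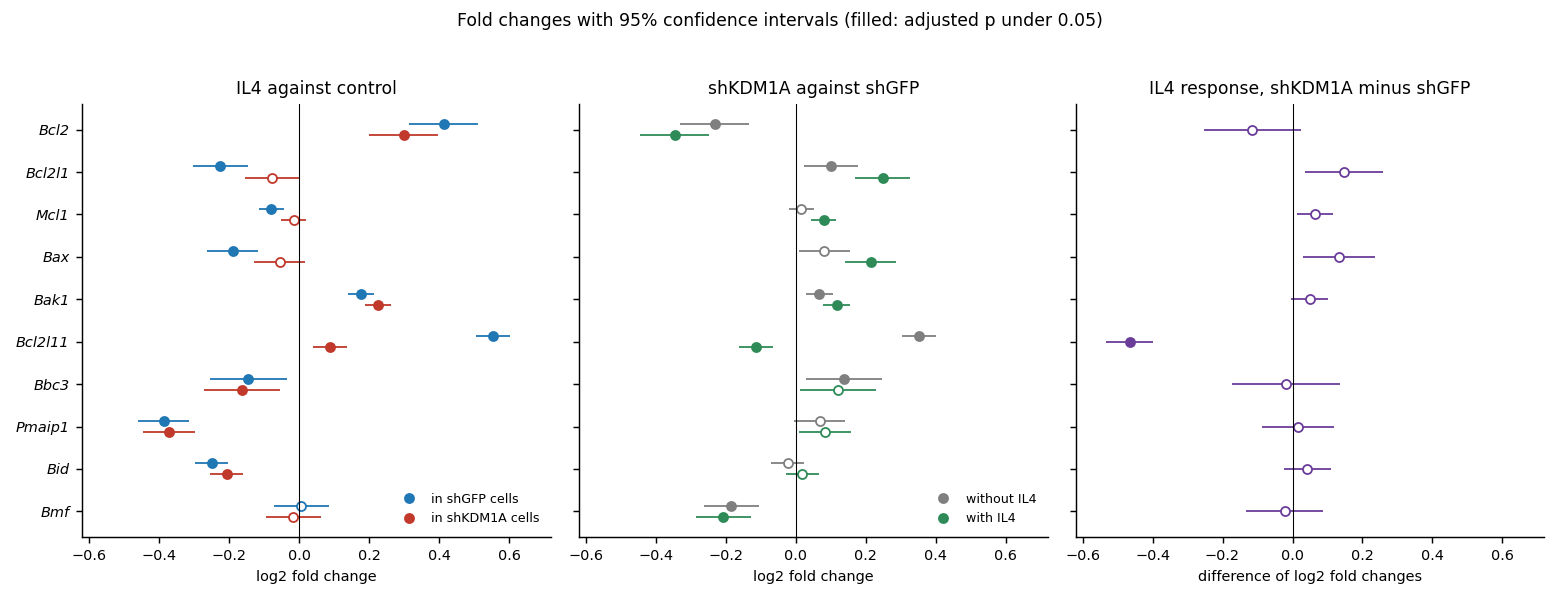
The x axes give log2 fold changes, or in the right panel the difference between the 2 responses to IL4, for the 10 genes on the y axis, with 95% confidence intervals and filled points for an adjusted p under 0.05. Bcl2l11 is the only filled point in the right panel, at -0.47, and in the middle panel it is the only gene whose filled points lie on opposite sides of 0, at 0.35 and -0.11.

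Other genes of the pathway were taken from lists, whose counts are read against the shares of all genes that were higher and lower, 19.7% and 18.4% for the knockdown without IL4, 20.9% and 19.8% with IL4, 13.1% and 13.7% for IL4 in shGFP cells and 13.6% and 13.5% in shKDM1A cells. Of 12 other BCL2 family genes 8 were tested, and the other 4 did not pass the filter on low values. Knockdown raised 2 and lowered 3 without IL4 and raised 1 and lowered 3 with IL4, and IL4 raised 1 and lowered none in shGFP cells and raised 1 and lowered 1 in shKDM1A cells. In either direction these are 5 and 4 of 8 for the knockdown, beside 38.2% and 40.7% of all genes, and 1 and 2 of 8 for IL4, beside 26.9% and 27.1%. Bcl2a1d, of the survival gene Bcl2a1 with its near-identical copies among which reads may be split, was the gene of the list that changed most. Its mean was 9.25 in shGFP control, 9.51 in shGFP IL4, 8.86 in shKDM1A control and 9.20 in shKDM1A IL4 libraries, so it was lower after knockdown (-0.39, adjusted p = 2.2e-07, and -0.30 with IL4, adjusted p = 4.0e-06) and higher with IL4 (0.25 and 0.34, adjusted p = 4.6e-05 and 2.0e-06), as Bcl2 was. Its copy Bcl2a1b was lower after knockdown too (-0.17 and -0.14), but its IL4 changes did not pass (0.071 and 0.098, adjusted p = 0.24 and 0.091). The copy Bcl2a1a was tested and passed in no comparison. Bcl2l2, which encodes the survival protein BCL-W, was higher after knockdown without IL4 (0.19, adjusted p = 0.0031), and Bok, a relative of the pore formers at a low level near 5, was higher in both conditions (0.090 and 0.15).

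All 16 genes of the apoptosome, the caspases and the inhibitors of apoptosis were tested. IL4 raised 2 and lowered 4 in shGFP cells and raised 2 and lowered 6 in shKDM1A cells, and knockdown raised 3 and lowered 1 without IL4 and raised 3 and lowered 4 with it. The knockdown thus changed 4 and 7 of 16 genes, beside 38.2% and 40.7% of all genes, and IL4 changed 6 and 8 of 16, beside 26.9% and 27.1%. Casp6, an executioner caspase, rose from a mean of 7.95 to 8.64 with IL4 in shGFP cells (0.69, SE 0.033, adjusted p = 1.0e-10) and from 7.91 to 8.80 in shKDM1A cells (0.89, adjusted p = 5.7e-12), more than any of the 10 BCL2 family genes, and was the only gene of this list whose response differed between the cell lines (0.20, adjusted p = 0.019). Cflar, which encodes an inhibitor of the death receptor caspase, fell with IL4 in both (-0.31 and -0.42, adjusted p = 4.8e-05 and 2.0e-06). Birc3, an inhibitor of apoptosis, was higher after knockdown (0.41 without and 0.51 with IL4, adjusted p = 5.4e-08 and 2.9e-09) and fell with IL4 (-0.29 and -0.19). Birc5, which encodes survivin, a protein of dividing cells, was lower after knockdown (-0.23 and -0.12).

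Of p53 and its targets 13 of 14 were tested, and none responded to IL4 differently between the cell lines in limma's test. Knockdown raised 5 and lowered 3 without IL4 and raised 4 and lowered 2 with it, while IL4 raised 1 and lowered 5 in shGFP cells and raised 1 and lowered 3 in shKDM1A cells. These are 8 and 6 of 13 genes for the knockdown, beside 38.2% and 40.7% of all genes, and 6 and 4 of 13 for IL4, beside 26.9% and 27.1%. Cdkn1a, the cell cycle inhibitor p21, was higher after knockdown (0.34 and 0.42, SE 0.028, adjusted p = 4.8e-08 and 4.1e-09), as was Mdm2, which targets p53 for degradation (0.29 and 0.36, adjusted p = 2.7e-07 and 2.0e-08). Zmat3 (-0.26 and -0.24) and Phlda3 (-0.32 and -0.17), also p53 targets, were lower, so the list did not move one way. Bbc3, Pmaip1 and Bax are p53 targets as well, and their values after knockdown are given above.

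All 12 mitochondrial partners and regulators of turnover were tested. Knockdown raised 3 and lowered 2 without IL4 and raised 2 and lowered 3 with it, and IL4 raised 4 and lowered 1 in shGFP cells and raised 3 and lowered 4 in shKDM1A cells. The knockdown thus changed 5 of 12 genes in each condition, beside 38.2% and 40.7% of all genes, and IL4 changed 5 and 7 of 12, beside 26.9% and 27.1%. Trib3, a stress-induced pseudokinase, had means of 6.51 in shGFP control, 6.68 in shGFP IL4, 6.81 in shKDM1A control and 6.41 in shKDM1A IL4 libraries. Like Bcl2l11 it was higher after knockdown without IL4 (0.30, adjusted p = 5.3e-05), lower with IL4 (-0.27, adjusted p = 0.00015) and differed in its response to IL4 (-0.58, SE 0.064, adjusted p = 7.5e-05), but in shKDM1A cells IL4 lowered it (-0.41, adjusted p = 4.0e-06). Bnip3, a mitophagy receptor with a BH3-like stretch, was higher after knockdown by 0.87 without and 1.01 with IL4 (SE 0.044, adjusted p = 1.6e-10 and 2.2e-11), and its relative Bnip3l by 0.30 and 0.20. Ddit3, the stress factor CHOP, fell with IL4 in both cell lines (-0.17 and -0.25, adjusted p = 0.012 and 0.00055).

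**Figure D4:**
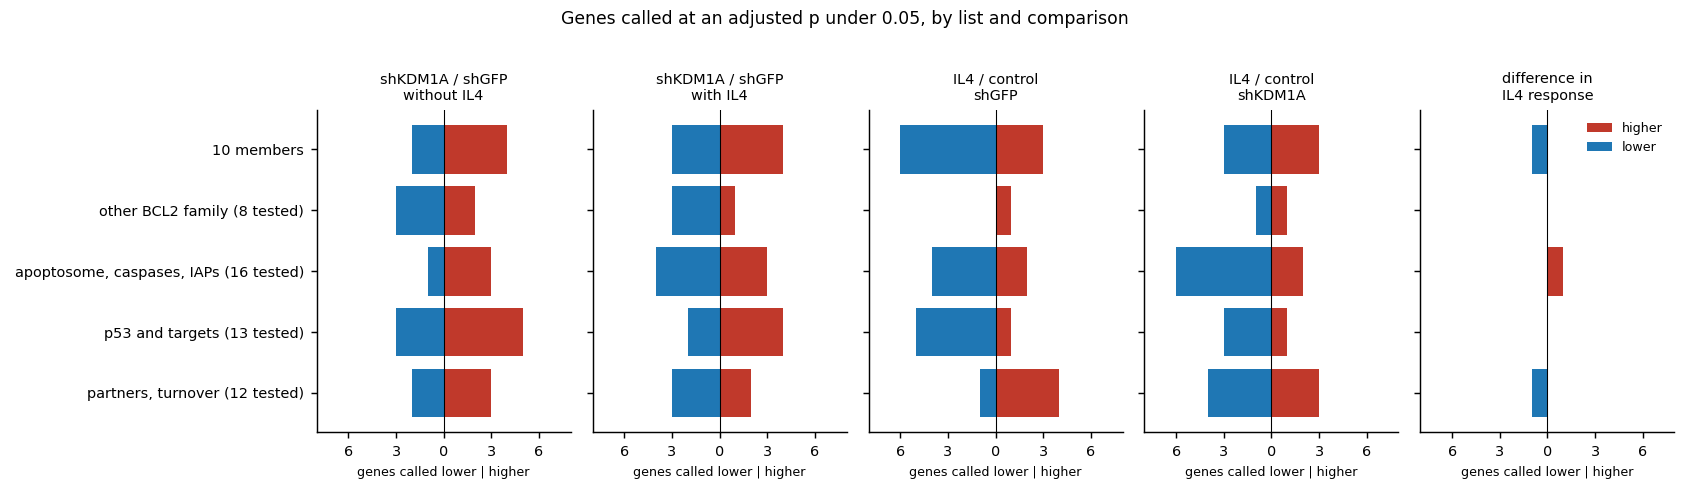
Bars give the number of genes called higher (to the right) or lower (to the left) at an adjusted p under 0.05, for the 10 genes and 4 lists of the pathway on the y axis and the 5 comparisons in panels. The 10 genes have 3 higher and 6 lower with IL4 in shGFP cells, and the right panel holds 1 gene each from the 10 (Bcl2l11), the caspase list (Casp6) and the partners (Trib3).

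The genes whose values followed each of the 10 most closely over the 16 libraries were found by Pearson's r, as a description, since libraries of a group share their treatment and hairpin. For Bcl2l11 they were Slc7a5, an amino acid transporter (r = 0.963), and Eya4 (r = 0.94), and for Bak1 they were Junb, a subunit of AP-1 (r = 0.99), and Lmna, the nuclear lamin gene (r = 0.989). Bcl2 was closest to Prex1 (r = 0.978) and Pigq (r = 0.972). Pmaip1 was closest to Lss, an enzyme of cholesterol synthesis (r = 0.975), and Dgkd (r = 0.974). Bid was closest to Lilrb4a (r = 0.977) and Dhcr7, another enzyme of cholesterol synthesis (r = 0.976). For Bcl2l1, Mcl1, Bax, Bbc3 and Bmf the closest genes were Ly9 (r = 0.942), Degs1 (r = 0.923), Agpat5 (r = 0.96), Tom1 (r = 0.934) and Ctbp2 (r = 0.923).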

How the data were processed

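RNA-seq of 16 RAW cell libraries was used. The authors aligned reads to mm9 and counted them with HOMER on exons of RefSeq genes, both strands together and 1 row per gene, and the submitters' processing notes also name HISAT2, Bowtie2 and DESeq2 (versions not given in the sources used here). The authors deposited log2 values per library, moderated at low levels, with decimal commas. The transformation is not named, so these are no counts and no count model was fitted. Columns of the authors' own comparisons (a log2 fold change, a p-value and its adjusted value for each pair of groups), which are all that the BMDM table holds, were not used. The other samples of the series were not analysed here.

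Libraries were grouped by their labels. Genes that reached a log2 value of 1 in 4 or more libraries were tested in R 4.3.3 with limma 3.58.1 (lmFit on group means of all 16 libraries, 12 residual degrees of freedom before moderation, and eBayes), with Benjamini-Hochberg adjustment over 12905 genes and a threshold of 0.05, in 5 comparisons. The step was tested on simulated data. The 10 genes were described in full, with up to 6 genes of each pathway list by number of calls and size and the closest genes by Pearson's r. The genes, lists and tests were chosen with earlier results of these data known. Promoters were read from the mm9 genome. Alternatives were the filter, the libraries in the model, a replicate block, centring on medians, a trended prior variance, quantile normalization, a minimum fold change and leaving out each library, and, chosen after seeing the data, leaving out pairs of shKDM1A IL4 libraries.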

Additional observations from a re-analysis of the deposited data

Results flagged for a closer look

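The response of Bcl2l11 to IL4 differed between shKDM1A and shGFP cells by -0.47 log2 units in the test of the difference itself (limma, adjusted p = 2.8e-07), and IL4 was followed by higher values in all 4 libraries of both cell lines.

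Within groups of 4, a library of Bid stood apart in 2 of the 40 groups examined. The lowest shGFP control library, at 11.35, was separated from the others by 0.952 of the range of the group, and the lowest shGFP IL4 library, at 11.12, by 0.914, both above Dixon's 95% critical value. Chance flags about 1 in 20 groups. The IL4 change of Bid passed the test without either library.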

How the results depend on the processing

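Of 50 results (10 genes in 5 comparisons) 29 passed the threshold, none of the 29 changed direction under any refit, and 23 passed under every planned refit and without each of the 16 libraries. Of these 23, Bcl2l11 with IL4 in shKDM1A cells missed it without shKDM1A IL4 libraries 2 and 4. The 6 others are in the report, and of them Bcl2l1 and Bbc3 after knockdown without IL4 and Bbc3 with IL4 in both cell lines were also lost without the filter, and Bbc3 with IL4 in shKDM1A cells when only the groups compared were fitted (adjusted p = 0.057). With an absolute log2 fold change of at least 0.2 also required, 2 of the 10 genes were left for the knockdown without IL4, 4 for the knockdown with IL4, 5 for IL4 in shGFP cells and 4 for IL4 in shKDM1A cells, where Bcl2l11 and Bbc3 were lost. The difference in IL4 response had 2 genes, Bcl2l11 and Bax, without shKDM1A IL4 libraries 2 and 4. Leaving out each library gave 4 to 6 and 7 to 9 genes for the knockdown without and with IL4, 8 to 9 and 5 to 7 for IL4 in shGFP and shKDM1A cells, and 1 for the difference. Small changes that had not passed turned sign and still did not pass. Under quantile normalization these were Mcl1 after knockdown without IL4 (-0.046), Bmf with IL4 in shGFP cells (-0.0024) and the difference for Bmf (0.0012). Without shKDM1A IL4 libraries 2 and 4 they were Bax with IL4 in shKDM1A cells (0.0016) and the difference for Bbc3 (0.078), and without libraries 1 and 3 the difference for Pmaip1 (-0.0020). Without single libraries they were the differences for Bbc3 (-0.067 to 0.022), Pmaip1 (-0.010 to 0.035) and Bmf (-0.047 to 0.0040), and Bmf with IL4 in shGFP cells (-0.021 to 0.030) and in shKDM1A cells (-0.037 to 0.0016). The causes were not tested. Same-numbered libraries showed little common deviation (3 of 24 pairs correlated over 0.1, median 0.045, from -0.34 to 0.27). Such correlations cannot exclude a pairing, which the labels do not state. With the replicate number as a block the counts were 6, 8, 9, 6 and 1, where Bbc3 after knockdown with IL4 was gained and no call was lost. How depth and the moderation of low values affected single genes was not tested.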
